A study of Mus musculus with 20 samples.

Results

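The matrix metalloproteinases, the ADAMTS proteinases and their tissue inhibitors were followed as 46 genes among the 24062 genes of a bulk RNA-seq count table of mouse nerve tumors. Members were all genes whose symbol is Mmp, Adamts or Timp followed by a number (with Mmp1a and Mmp1b), a rule on names, applied to families chosen with earlier results of these data known. The rule gave 23 Mmp, 19 Adamts and 4 Timp genes, and all 46 were found in the mouse annotation.

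Matrix metalloproteinases (MMPs) are zinc-dependent enzymes that cut collagens, elastin and other proteins outside the cell. Most are secreted as inactive precursors, while the membrane types sit at the cell surface, where Mmp14 together with Timp2 activates the Mmp2 precursor. ADAMTS proteinases are secreted relatives that trim procollagens and cut versican and aggrecan. The TIMPs bind the active site of these enzymes and block it. In peripheral nerve, whose fibers lie in a collagen-rich sheath, MMPs are known for remodeling matrix and basement membrane after injury.

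The 20 libraries were made from total RNA of tumors of C57BL/6J mice. The 4 GEM-PNST libraries (the labels' name for the most advanced tumors) and the 4 paraspinal tumor libraries came from Nf1fl/fl; DhhCre mice that also carry 1 disrupted Ink4a/Arf copy (Ink4a/Arf+/-). The 12 neurofibroma libraries came from Nf1fl/fl; DhhCre mice whose label names no Ink4a/Arf allele. All groups therefore share the floxed Nf1 gene and DhhCre, a recombinase driven by the desert hedgehog promoter, which acts in the Schwann cell lineage, so other cells of a tumor keep Nf1. The paraspinal libraries are divided into subgroup 2 and subgroup 1 (2 libraries each), which the labels call sub-clusters and which may have been drawn from these values. The labels give no ages and do not say that each library is a separate animal, so p-values measure the spread between these samples, which may be technical. Neurofibroma libraries 8 and 9 have sample names that differ only in the last letter. Paraspinal subgroup 1 library 1 and GEM-PNST library 2 have names that differ only in the last letter and in letter case. Whether either pair shares an animal is not given, and the fits took all libraries as independent.

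Total counts were 16282605 to 22218382 per library in GEM-PNST, 18474071 to 24314222 in paraspinal and 9900759 to 17594164 in neurofibroma libraries. A single gene, Rn45s, took 30.74% of the counts in GEM-PNST library 4. It was also the top gene of every neurofibroma but library 7, at 6.49% to 18.85%, and took 0.95% in paraspinal subgroup 1 library 2. The neurofibroma libraries came from 2 sequencing runs (libraries 7 to 12 in run 2 and 1 to 6 in run 1) and all others from another run, so wherever neurofibroma is compared, stage, run and the Ink4a/Arf label cannot be told apart. Levels are CPM, each gene's share of a library's counts on the usual common scale, adjusted by trimmed mean of M-values (TMM) factors over all 20 libraries. A summed level of 10 Schwann cell markers was 208, 60.9, 1343 and 114 CPM across GEM-PNST libraries 1 to 4, against 8379 to 17869 CPM in paraspinal and 3828 to 21620.2 CPM in neurofibroma libraries. Sox10, which marks the Schwann cell lineage, had 0.609, 0.486, 437 and 5.65 CPM across GEM-PNST libraries 1 to 4, so this defining marker of the labelled nerve sheath origin was near absent in libraries 1, 2 and 4. GEM-PNST library 1 also stood apart in its fibroblast markers, which summed to 159 CPM against 2939 to 14841 CPM in the other 3, and library 3 in its epithelial and gland markers, at 5302 CPM against 290.2 to 807 CPM. In such bulk samples fewer cells of a type and less RNA per cell cannot be told apart.

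The families differed in which member led them. Per kilobase of exon, Mmp2 had the highest level of the 23 Mmp genes in all 12 neurofibromas, in all 4 paraspinal tumors and in GEM-PNST libraries 3 and 4, while Mmp14 led in GEM-PNST libraries 1 and 2. Summed over the 23 genes, the level was 57.9, 533, 558 and 620.2 CPM per kilobase in GEM-PNST libraries 1 to 4, against 185 to 433 in paraspinal and 39.2 to 236 in neurofibroma libraries. GEM-PNST libraries 2 to 4 thus lay above all others, and library 1 lay within the neurofibroma range. The summed level of the Adamts genes was 20.8 to 140.3 CPM per kilobase in GEM-PNST, 49.0 to 70.0 in paraspinal and 35.0 to 107 in neurofibroma libraries, so these ranges overlapped.

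**Figure D1:**
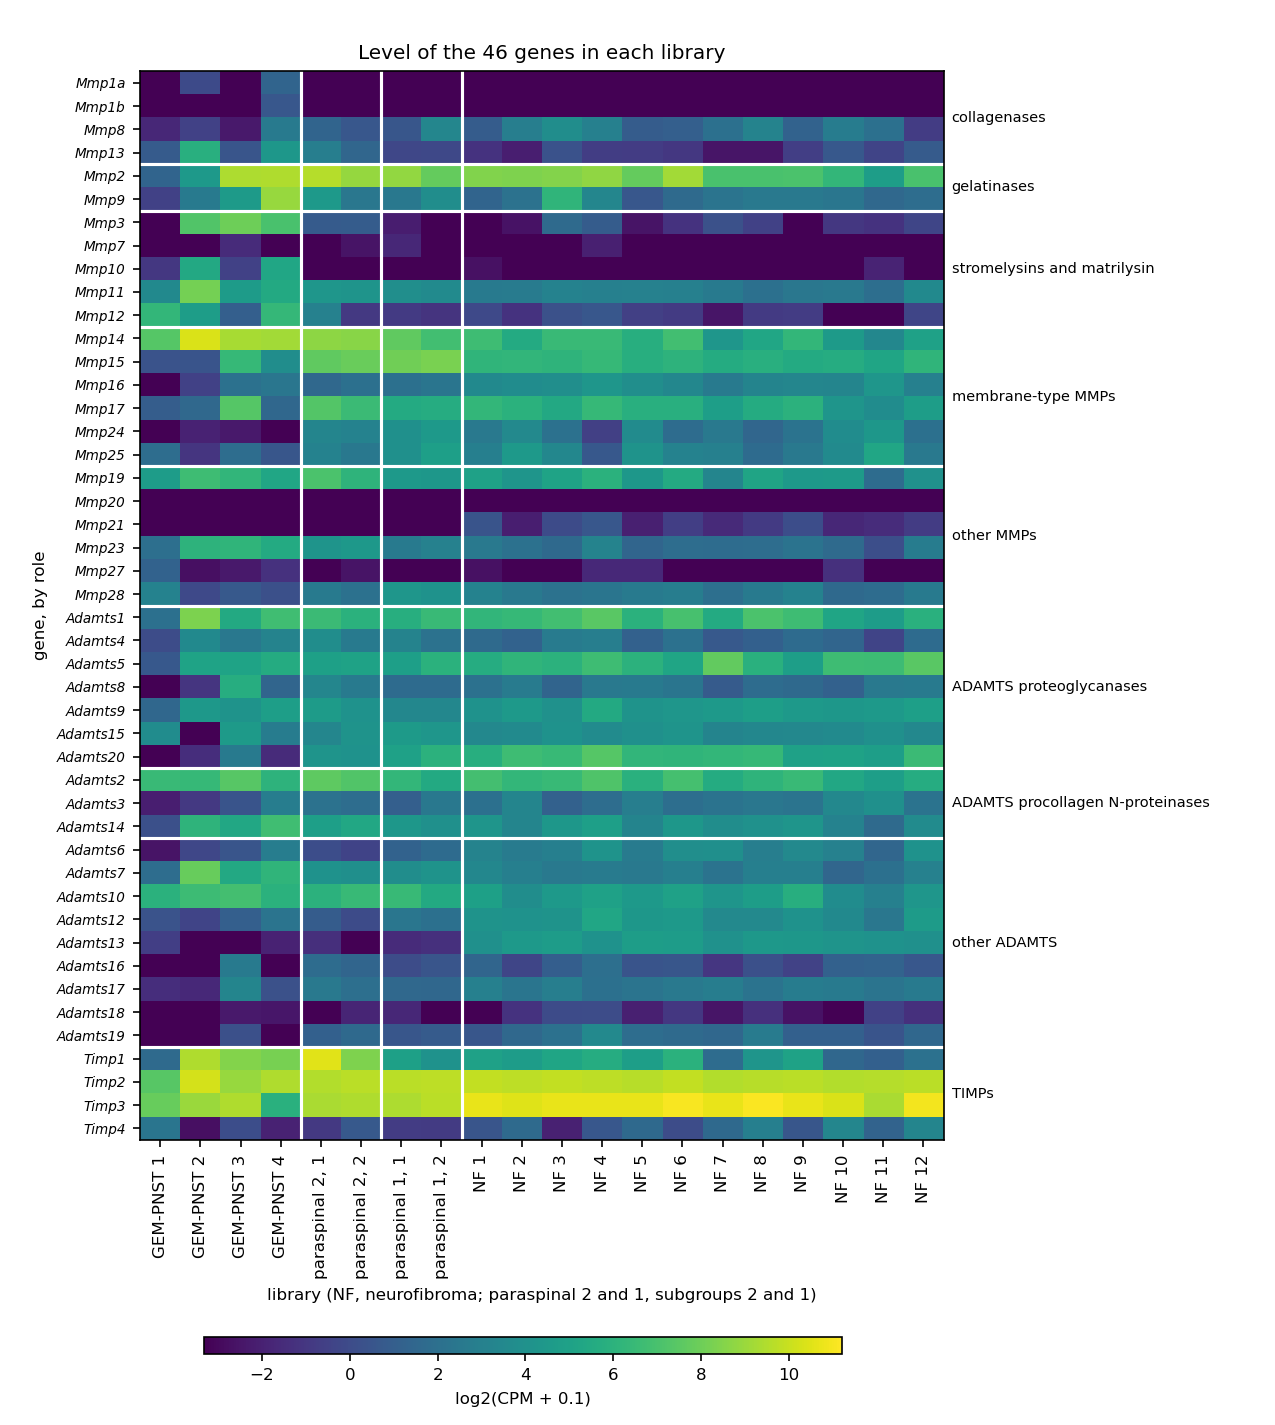
Map of the 46 genes (rows, by role) in the 20 libraries (columns), colored by log2(CPM + 0.1). Timp2 and Timp3 are bright in nearly every library, Mmp3, Mmp10 and Mmp12 are bright mainly in GEM-PNST columns, and Adamts13 and Mmp21 are dark outside the neurofibroma columns.

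Of the 46 genes, 39 passed the filter on low counts. The other 7 were Mmp1a, Mmp1b, Mmp7, Mmp10, Mmp20, Mmp27 and Adamts18, and Mmp20, an enamel enzyme, had 0 counts in all 20 libraries. Between GEM-PNST and paraspinal tumors, which share genotype and run, 1 of 39 genes passed an adjusted p of 0.05 by edgeR's quasi-likelihood test with Benjamini-Hochberg adjustment over all 16589 genes tested. It was Mmp24, which fell, against a background of 10.9% of all genes called (3.07% higher and 7.82% lower). In simulated data, with 100 genes changed 2-fold and 100 changed 4-fold, this fit recovered 0 of those changed 4-fold. That is a smaller share of changed genes than the 10.9% called here, which makes the adjustment stricter. The simulation therefore does not give the power of the real fit, and a gene that did not pass here may still differ. Another 8 genes had an unadjusted p under 0.05 (9 of 39 in all, against 33.9% of all genes). The libraries of the 2 groups did not overlap in 5 of 39 genes (against 27.6% of all genes), all lower in GEM-PNST, namely Mmp15, Mmp24, Mmp25, Adamts19 and Adamts20. The median log2 fold change was -0.30 over the 39 genes and 0.04 over all genes. The count was 5 without GEM-PNST library 1 (against 9.70% of all genes in that fit), 7 without library 3 (15.1%), 2 without paraspinal subgroup 2 library 1 (7.0%), and 14 without GEM-PNST libraries 1 and 3 (14.5%), a pair left out after their marker levels were seen.

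Between paraspinal tumors and neurofibromas 21 of 39 genes passed (53.8%, against a background of 59.5% of all genes), 11 higher (30.3% of all genes) and 10 lower (29.3%). Between GEM-PNST and neurofibromas 23 of 39 passed (59.0%, against 73.3%), 12 higher (35.4% of all genes) and 11 lower (37.9%), and 23 had an unadjusted p under 0.05 (75.1%). Neither share exceeded that of all genes. Libraries did not overlap in 8 of 39 genes between paraspinal tumors and neurofibromas (36.5% of all genes) and in 11 of 39 between GEM-PNST and neurofibromas (46.5%). The median log2 fold change was 0.36 over the 39 genes and -0.01 over all genes for paraspinal tumors, and -0.24 over the 39 genes and -0.12 over all genes for GEM-PNST, both against neurofibromas. Set against run 2 or run 1 of the neurofibromas alone, 23 and 16 genes passed for paraspinal tumors (against 52.8% and 57.0% of all genes) and 22 and 18 for GEM-PNST (against 64.8% and 65.4%). Against run 2 alone the calls in paraspinal tumors included Mmp2, Mmp9, Mmp17, Mmp19, Adamts2 and Adamts14, and those in GEM-PNST included Adamts2 and Adamts4, all higher and none of them called against all 12 neurofibromas. Since both comparisons use the same 12 neurofibroma libraries, their calls are not independent of each other.

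**Figure D2:**
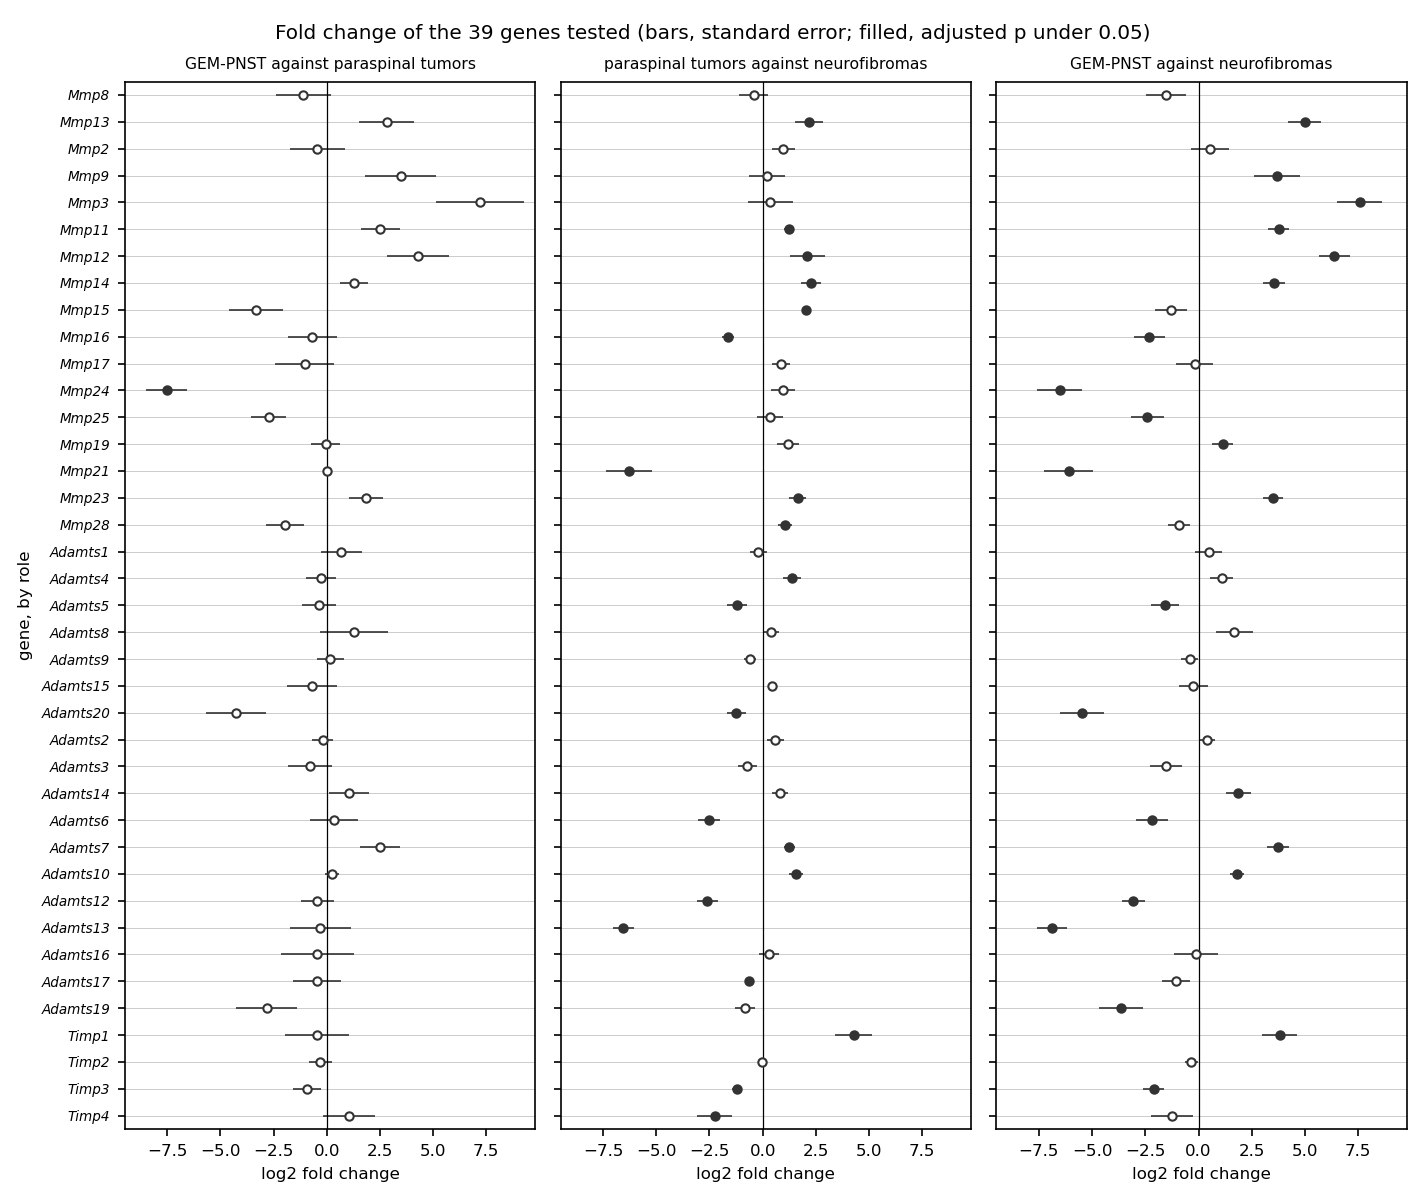
Log2 fold change (x axis) of the 39 genes tested (y axis, by role) in the 3 stage comparisons, with the standard error as bars and filled points at an adjusted p under 0.05. Mmp24 is the only filled point between GEM-PNST and paraspinal tumors, and the bars there are wide.

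Several secreted collagenases and stromelysins, which cut fibrillar collagen and other matrix proteins, were high in GEM-PNST libraries, and their genes form a cluster of 10 Mmp genes on chromosome 9 (GRCm38, 7272514 to 7699585). In order these are Mmp13, Mmp12, Mmp1b, Mmp3, Mmp1a, Mmp10, Mmp8, Mmp27, Mmp20 and Mmp7. Their summed level was 12.6, 136, 142 and 119 CPM per kilobase in GEM-PNST libraries 1 to 4, against 5.87 and 2.75 in paraspinal subgroup 2, 1.16 and 4.41 in subgroup 1, and 1.03 to 8.09 in neurofibroma libraries. Every GEM-PNST library lay above every other library. In GEM-PNST library 1 the sum was mostly Mmp12 (77.1 CPM), with Mmp3 at 0, Mmp10 at 0.406 and Mmp13 at 1.69 CPM.

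Their promoters are shown because several of these genes were high in GEM-PNST and because AP-1, a dimer of FOS and JUN family proteins, is known to act at several of them. RefSeq promoters (GRCm38.p6, 250 bases before to 50 after each start) were given for 32 of the 46 genes, in 35 entries. The letters TGANTCA, the core to which AP-1 binds, were found on either strand in 8 of 35 entries (22.9%, against 7.81% of all 32851 promoters of that length). All 8 belonged to the cluster (Mmp13, Mmp12, Mmp1b, Mmp3, Mmp1a, Mmp10, Mmp20 and Mmp7), and none to the 22 other genes with a promoter. The letters TATAAA, the core of a TATA box, were found on either strand in 11 of 35 entries (31.4%, against 13.6% of all promoters), among them the same 8. A match is a description of these letters and not a site, and the gene with no counts at all, Mmp20, also holds one. The stretches below run from 120 bases before the start and hold 140 bases each, with both motifs in capitals (in Mmp8, TTTATA is TATAAA read on the opposite strand). They lie on the plus strand of chromosome 9, at chr9:7445702-7445841 for Mmp3, chr9:7502222-7502361 for Mmp10, chr9:7272394-7272533 for Mmp13, chr9:7347254-7347393 for Mmp12 (the later of its 2 RefSeq starts), chr9:7464021-7464160 for Mmp1a and chr9:7558309-7558448 for Mmp8, which has no TGANTCA.
Mmp3: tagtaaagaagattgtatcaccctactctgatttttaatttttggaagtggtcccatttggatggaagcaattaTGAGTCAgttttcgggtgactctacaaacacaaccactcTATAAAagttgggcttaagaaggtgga
Mmp10: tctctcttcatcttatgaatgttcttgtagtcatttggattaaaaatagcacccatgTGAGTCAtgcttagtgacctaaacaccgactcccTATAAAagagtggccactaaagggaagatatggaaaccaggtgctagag
Mmp13: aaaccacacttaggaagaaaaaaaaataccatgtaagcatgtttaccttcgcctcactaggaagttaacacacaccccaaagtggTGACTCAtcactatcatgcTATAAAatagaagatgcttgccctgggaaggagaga
Mmp12: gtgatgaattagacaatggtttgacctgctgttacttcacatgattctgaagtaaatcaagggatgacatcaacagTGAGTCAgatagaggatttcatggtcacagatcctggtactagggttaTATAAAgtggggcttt
Mmp1a: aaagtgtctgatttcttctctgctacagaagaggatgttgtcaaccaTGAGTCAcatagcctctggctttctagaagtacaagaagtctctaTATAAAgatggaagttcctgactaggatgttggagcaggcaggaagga
Mmp8: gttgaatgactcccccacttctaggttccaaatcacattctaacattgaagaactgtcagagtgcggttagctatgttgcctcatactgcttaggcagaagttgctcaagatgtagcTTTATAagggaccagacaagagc
The first base of TGANTCA lies 46 bases before the start in Mmp3, 63 in Mmp10, 35 in Mmp13, 44 in Mmp12 and 73 in Mmp1a. For Mmp12 the start shown was taken because its promoter holds TGANTCA, and the promoter of its other start holds neither motif. TATAAA begins 4 bases after the start shown for Mmp12, and 3 to 29 bases before the start in the other stretches.

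Mmp3, stromelysin-1, which cuts many matrix proteins and activates other MMPs, had 0, 154, 254 and 130.1 CPM across GEM-PNST libraries 1 to 4, against 1.7 and 1.78 CPM in paraspinal subgroup 2, 0.124 and 0 CPM in subgroup 1, and 0 to 3.11 CPM (median 0.373) in neurofibromas. It was thus high in 3 GEM-PNST libraries and without a count in library 1. Against neurofibromas Mmp3 rose (log2 fold change 7.57, SE 1.07, adjusted p = 8.74e-06 by edgeR). Against paraspinal tumors the change was 7.21 (SE 2.07, adjusted p = 0.0569 by edgeR), which did not pass, and without GEM-PNST library 1 it was 7.62 and passed.

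Mmp10, stromelysin-2, a close relative of Mmp3, had 0.406, 43.1, 0.595 and 39 CPM across GEM-PNST libraries 1 to 4 (6, 798, 12 and 483 counts), 0 counts in all 4 paraspinal libraries and 3 counts in the 12 neurofibromas. All 4 GEM-PNST libraries lay above all others, and libraries 2 and 4 held nearly all of its counts. Over the group it was at least 624-fold higher than in paraspinal tumors, taking 3 counts per group as the floor, and its ratio to neurofibromas was 1070 (95% counting interval 365 to 5190). Floors and intervals cover counting error only. Mmp10 did not pass the filter on low counts. In the fit with no filter it passed as higher against paraspinal tumors (adjusted p = 0.0497 by edgeR, 8.17% of all genes called) and against neurofibromas (adjusted p = 3.83e-07, 63.6% of all genes called).

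Mmp13, the main fibrillar collagenase of rodents, had 1.69, 58.0, 1.34 and 20.3 CPM across GEM-PNST libraries 1 to 4, 7.43 and 2.66 CPM in paraspinal subgroup 2, 0.743 and 0.796 CPM in subgroup 1, and 0.0753 to 1.71 CPM (median 0.510) in neurofibromas. GEM-PNST libraries 2 and 4 were the highest, and libraries 1 and 3 lay near the top of the neurofibroma range. It rose in GEM-PNST against neurofibromas (log2 fold change 5.0, SE 0.78, adjusted p = 2.31e-05 by edgeR). In paraspinal tumors against neurofibromas it also rose (2.19, SE 0.66, adjusted p = 0.0083 by edgeR), but the change was 1.15 without subgroup 2 library 1, 0.29 with subgroup 1 alone and 1.93 against neurofibroma run 2 alone, none of which passed.

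Mmp12, the macrophage elastase, had 77.1, 27.3, 1.98 and 81.1 CPM across GEM-PNST libraries 1 to 4, 8.3 and 0.437 CPM in paraspinal subgroup 2, 0.454 and 0.354 CPM in subgroup 1, and 0 to 1.46 CPM (median 0.486) in neurofibromas. Every GEM-PNST library lay above every neurofibroma, and of the paraspinal libraries only subgroup 2 library 1 did. Mmp12 rose in GEM-PNST against neurofibromas (log2 fold change 6.39, SE 0.73, adjusted p = 8.02e-07 by edgeR) and had a change of 4.30 (SE 1.45, adjusted p = 0.0821) against paraspinal tumors, which passed at 4.70 without GEM-PNST library 3 and at 6.80 without paraspinal subgroup 2 library 1. Its call between paraspinal tumors and neurofibromas (2.10, SE 0.81, adjusted p = 0.0347) rested on subgroup 2 library 1, without which the change was -0.40, and against neurofibroma run 1 alone it was 1.57 and did not pass. The 9 macrophage markers found in the table summed to 1920.2 to 5189.7 CPM in GEM-PNST, 303 to 1812 CPM in paraspinal and 49.8 to 743 CPM in neurofibroma libraries, none of them at 0 in all libraries of a group, and their part in the Mmp12 result was not tested. GEM-PNST library 3, with the lowest Mmp12 of its group, had 4021 CPM of these markers.

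**Figure D3:**
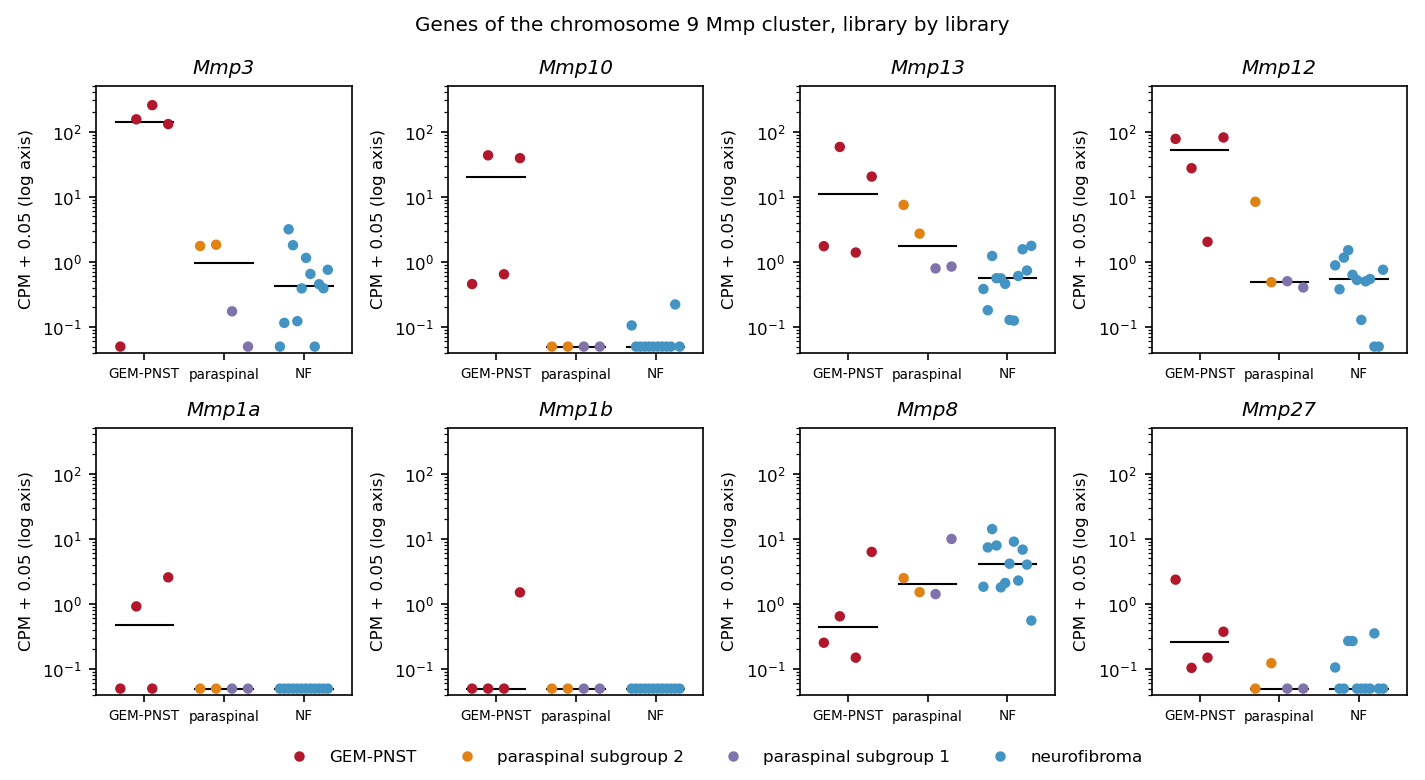
Level of 8 genes of the chromosome 9 cluster in each library (CPM + 0.05, log axis), with GEM-PNST left, paraspinal tumors in the middle and neurofibromas (NF) right, and a line at each median. Mmp3, Mmp10, Mmp13 and Mmp12 reach their highest points in GEM-PNST, while Mmp8 does not.

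The rarer collagenases of the cluster were seen in GEM-PNST alone. Mmp1a had 16 counts in GEM-PNST library 2 and 31 in library 4, and Mmp1b had 18 counts in library 4, with 0 counts in the other libraries of all groups. Mmp1a was at least 22.6-fold and Mmp1b at least 8.65-fold higher than in paraspinal tumors by the same floor. Mmp12 and Mmp1b overlap on opposite strands by 157 exon bases, and whether strand was used in counting is not given. Mmp27 had 34 of its 41 GEM-PNST counts in library 1, and Mmp7, matrilysin, had at most 5 counts in any library. With no filter Mmp1a (adjusted p = 0.012 by edgeR), Mmp1b (0.0374) and Mmp27 (0.00918) passed as higher in GEM-PNST against neurofibromas, and none of the 4 passed against paraspinal tumors.

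Mmp8, the collagenase stored by neutrophils, did not share that pattern. It had 0.203, 0.594, 0.0992 and 6.22 CPM across GEM-PNST libraries 1 to 4, 2.43 and 1.46 CPM in paraspinal subgroup 2, 1.36 and 9.86 CPM in subgroup 1, and 0.504 to 14.0 CPM (median 4.01) in neurofibromas. No comparison of stages passed for Mmp8, although with GEM-PNST library 4 left out the change against neurofibromas (-4.05 on the log2 scale) passed. The 9 neutrophil markers found summed to 24.9 to 178 CPM in GEM-PNST, 49.6 to 302 CPM in paraspinal and 53.5 to 305 CPM in neurofibroma libraries. The highest Mmp8 of each group fell in GEM-PNST library 4, paraspinal subgroup 1 library 2 and neurofibroma library 3, which also had the highest neutrophil sums of their groups.

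Mmp2, gelatinase A, which cuts denatured collagen and basement membrane, had 2.5, 22.1, 671 and 717 CPM across GEM-PNST libraries 1 to 4, 768 and 474 CPM in paraspinal subgroup 2, 459 and 216 CPM in subgroup 1, and 26.7 to 575 CPM (median 179) in neurofibromas. GEM-PNST libraries 1 and 2 lay below every other library, and libraries 3 and 4 near the top. No stage comparison with all libraries passed for Mmp2, but in paraspinal tumors against neurofibroma run 2 alone it passed at 2.18 (adjusted p = 0.00197 by edgeR), against 0.32 for run 1 alone. In GEM-PNST library 1 and neurofibroma library 11, with the lowest Mmp2 of their groups, the 10 fibroblast markers also had their lowest sums, at 159 and 1094 CPM. GEM-PNST library 2 went the other way, with less Mmp2 than neurofibroma library 11 but a higher sum of these markers, at 2939 CPM. The part of fibroblast RNA in the Mmp2 levels was not tested.

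Mmp9, gelatinase B, had 0.609, 6.2, 24.1 and 495 CPM across GEM-PNST libraries 1 to 4, 22.6 and 5.28 CPM in paraspinal subgroup 2, 5.61 and 13.6 CPM in subgroup 1, and 1.45 to 73.3 CPM (median 4.45) in neurofibromas. A single library, GEM-PNST library 4, stood far above the rest. Mmp9 passed in GEM-PNST against neurofibromas (log2 fold change 3.69, SE 1.09, adjusted p = 0.0059 by edgeR), but without that library the change was 0.02, and against neurofibroma run 1 alone it was 3.06 and did not pass. In paraspinal tumors it passed against neurofibroma run 2 alone (1.36, adjusted p = 0.018), with a change of -0.42 against run 1 alone. Of osteoclasts, which are known for high Mmp9, 6 markers summed to 1470.3 CPM in GEM-PNST library 4, against 161 to 430.3 CPM in the other GEM-PNST, 21.1 to 210.1 CPM in paraspinal and 6.01 to 104 CPM in neurofibroma libraries. Acp5 (914 CPM) and Ctsk (519.7 CPM) were the main part of that sum in library 4, Calcr was at 0 in all paraspinal libraries and in GEM-PNST libraries 1 to 3. Neurofibroma library 3 had both the highest Mmp9 and the highest osteoclast sum of its group. Neutrophil markers were likewise highest of their groups in GEM-PNST library 4 (178 CPM) and neurofibroma library 3 (305 CPM). Macrophage markers were highest of the group in GEM-PNST library 4 (5189.7 CPM) but not in neurofibroma library 3 (710 CPM, against 743 CPM in library 4). The part of any of these cells in the Mmp9 result was not tested.

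Mmp11, stromelysin-3, which lies outside the cluster on chromosome 10 and is activated inside the cell by furin, had 12, 286, 24.7 and 45.1 CPM across GEM-PNST libraries 1 to 4, 19.5 and 18 CPM in paraspinal subgroup 2, 14.1 and 12.5 CPM in subgroup 1, and 3.69 to 11.6 CPM (median 6.28) in neurofibromas. All 8 GEM-PNST and paraspinal libraries lay above all 12 neurofibromas. It rose in GEM-PNST (log2 fold change 3.76, SE 0.50, adjusted p = 4.37e-06 by edgeR) and in paraspinal tumors (1.24, SE 0.23, adjusted p = 0.000213), both against neurofibromas. Against paraspinal tumors the GEM-PNST change was 2.52 (SE 0.92, adjusted p = 0.098) and did not pass.

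Among the 6 membrane-type genes, 1 fell in GEM-PNST against paraspinal tumors (16.7%, against 10.9% of all genes called), 2 rose and 1 fell in paraspinal tumors against neurofibromas (3 of 6, against 59.5%), and 1 rose and 3 fell in GEM-PNST against neurofibromas (66.7%, against 73.3%). Mmp14, the collagenase of the cell surface and activator of Mmp2, had 165, 1349, 638 and 583 CPM across GEM-PNST libraries 1 to 4, 427 and 389 CPM in paraspinal subgroup 2, 198 and 113 CPM in subgroup 1, and 10.6 to 113 CPM (median 50.5) in neurofibromas. Every GEM-PNST and paraspinal library lay above every neurofibroma, although paraspinal subgroup 1 library 2 and the highest neurofibroma round to the same level, and GEM-PNST libraries 2 to 4 lay above every paraspinal library. Mmp14 rose against neurofibromas in GEM-PNST (log2 fold change 3.54, SE 0.51, adjusted p = 1.01e-05 by edgeR) and in paraspinal tumors (2.26, SE 0.47, adjusted p = 0.000545). With paraspinal subgroup 1 alone the change was 1.40 and did not pass. Against paraspinal tumors the GEM-PNST change was 1.28 (SE 0.66, adjusted p = 0.208).

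Mmp15, another membrane type, was highest in paraspinal tumors. It had 1.22, 1.24, 83.7 and 14.0 CPM across GEM-PNST libraries 1 to 4, 204 and 236 CPM in paraspinal subgroup 2, 267 and 308 CPM in subgroup 1, and 37.0 to 83.3 CPM (median 62.0) in neurofibromas. The paraspinal libraries lay above all others, and Mmp15 rose there against neurofibromas (log2 fold change 2.05, SE 0.17, adjusted p = 3.41e-08 by edgeR). Its GEM-PNST change against paraspinal tumors was -3.34 (SE 1.26, adjusted p = 0.105), which passed at -5.53 without GEM-PNST library 3. That library had the highest Schwann cell marker sum of its group, and it also stood apart in Mmp17, a membrane type with a lipid anchor, with 165 CPM against 1.83, 2.91 and 2.74 CPM in GEM-PNST libraries 1, 2 and 4. Mmp17 had 46.4 to 162 CPM in paraspinal and 13.3 to 83.9 CPM in neurofibroma libraries, and no stage comparison passed. Without GEM-PNST library 3 the GEM-PNST changes of Mmp17 passed, at -5.15 against paraspinal tumors and -4.28 against neurofibromas, and so did that of Mmp15 against neurofibromas, at -3.49. Mmp17 in paraspinal tumors against neurofibromas had a change of 0.87 (SE 0.41, adjusted p = 0.0752 by edgeR), which passed at 1.08 and 1.07 without subgroup 1 library 1 or 2 and at 0.97 without neurofibroma library 4, and at 1.41 against neurofibroma run 2 alone and with subgroup 2 alone. The part of Schwann cell RNA in these results was not tested.

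Mmp24, a membrane type known from the nervous system, had 0, 0.162, 0.0992 and 0 CPM across GEM-PNST libraries 1 to 4 (0, 3, 2 and 0 counts), 9.56 and 8.74 CPM in paraspinal subgroup 2, 15.8 and 22.9 CPM in subgroup 1, and 0.584 to 20.7 CPM (median 5.11) in neurofibromas. Every GEM-PNST library lay below every other library. Mmp24 fell in GEM-PNST against paraspinal tumors (log2 fold change -7.53, SE 0.96, adjusted p = 0.00368 by edgeR) and against neurofibromas (-6.52, SE 1.05, adjusted p = 3.37e-05). With paraspinal subgroup 2 alone the change was -6.90 and did not pass. The 10 sensory neuron markers summed to 32.3 to 484 CPM in GEM-PNST, 2490.1 to 3371 CPM in paraspinal and 12.7 to 4291 CPM in neurofibroma libraries, and 9 of 10 fell in GEM-PNST against paraspinal tumors (7.82% of all genes), with Scn10a at 0 counts in all GEM-PNST libraries. Neurofibroma library 4, with the lowest Mmp24 of its group, also had the lowest sum of these markers, and library 11 had the highest of both. The part of sensory neuron RNA in the Mmp24 result was not tested, and 13.6% of the Mmp24 exon bases overlap BC029722 on the opposite strand.

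Mmp25, a membrane type best known from leukocytes, showed the same order of neurofibroma libraries at its ends. It had 3.58, 0.378, 3.57 and 1.37 CPM across GEM-PNST libraries 1 to 4, 8.74 and 5.57 CPM in paraspinal subgroup 2, 15.6 and 29.8 CPM in subgroup 1, and 1.53 to 38.5 CPM (median 8.14) in neurofibromas, with library 4 lowest and library 11 highest. Each GEM-PNST library lay below each paraspinal library. Mmp25 fell in GEM-PNST against neurofibromas (log2 fold change -2.41, SE 0.78, adjusted p = 0.0103 by edgeR), and its change against paraspinal tumors was -2.74 (SE 0.81, adjusted p = 0.0617). Mmp16, a further membrane type, had 0, 0.594, 4.12 and 5.17 CPM in GEM-PNST, 2.86 to 4.91 CPM in paraspinal and 6.03 to 19.7 CPM in neurofibroma libraries. It was lower in every library of the first 2 groups than in any neurofibroma, and it fell in paraspinal tumors (-1.63, SE 0.30, adjusted p = 0.000146) and in GEM-PNST (-2.31, SE 0.73, adjusted p = 0.0094; -2.09 and not passing against neurofibroma run 2 alone).

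**Figure D4:**
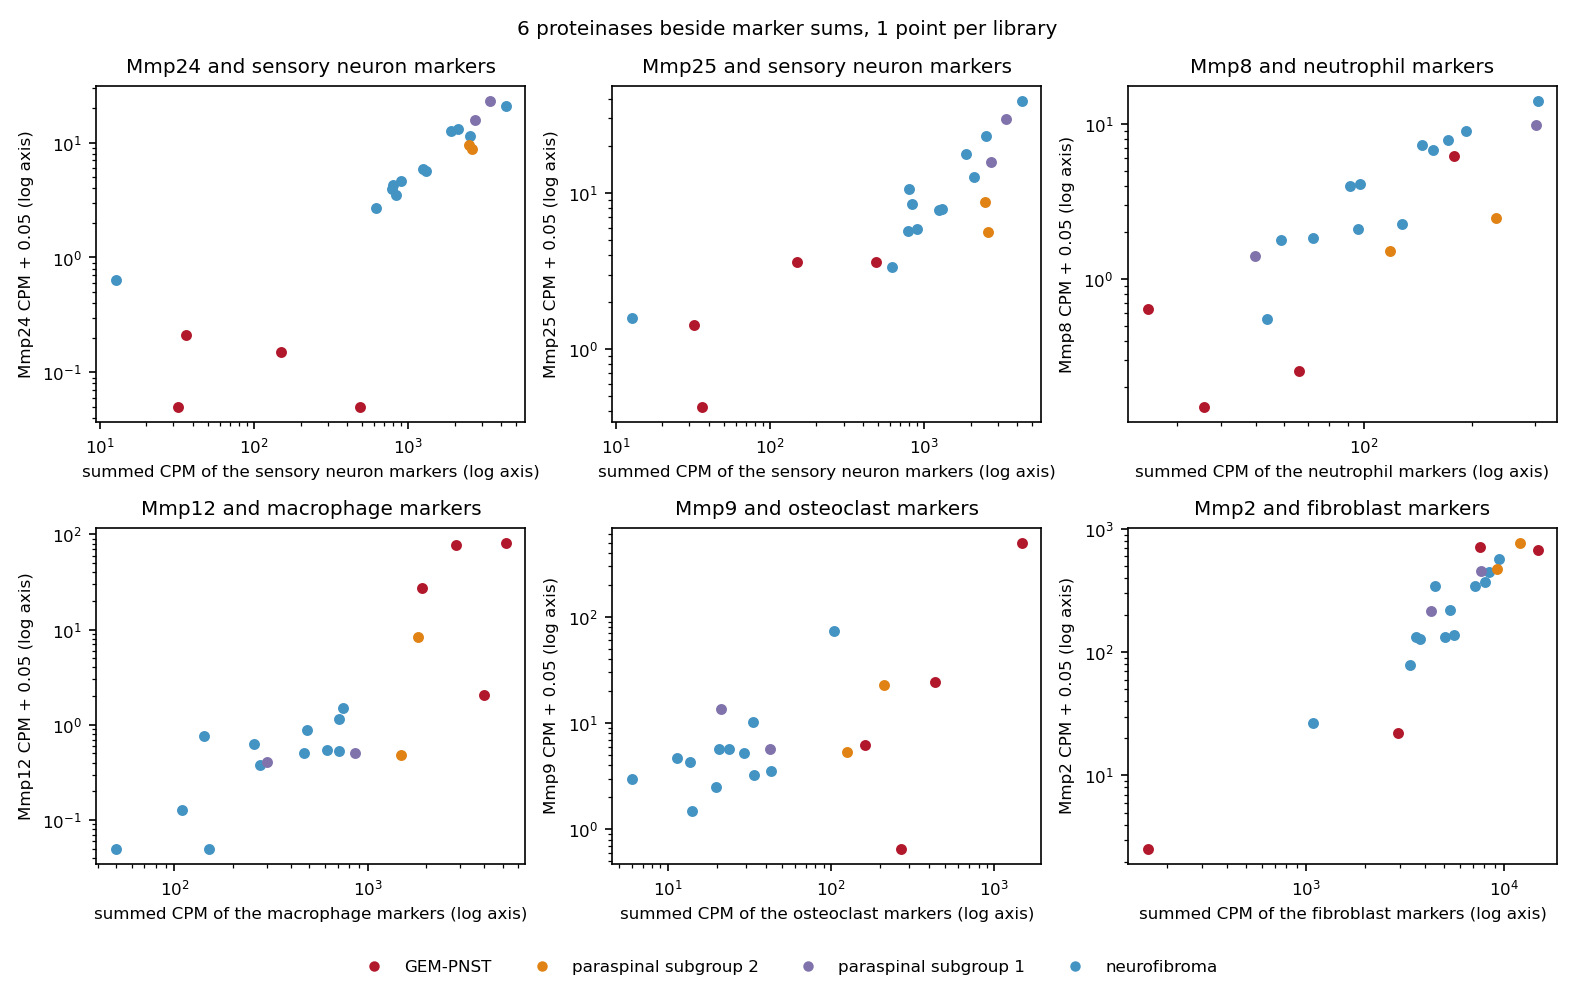
Levels of 6 proteinases (y axes, CPM + 0.05, log axes) beside the summed CPM of marker lists (x axes, log axes), 1 point per library. Neurofibroma library 4 is low and library 11 high in both Mmp24 and Mmp25 and in sensory neuron markers, GEM-PNST library 4 is the top right point for Mmp9, and GEM-PNST library 1 is the bottom left point for Mmp2.

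Of the other MMPs, Mmp23, an enzyme with an unusual cysteine-rich tail, had 3.92, 68.2, 71.9 and 46.9 CPM across GEM-PNST libraries 1 to 4, 17.9 and 21.1 CPM in paraspinal subgroup 2, 5.9 and 8.31 CPM in subgroup 1, and 1.03 to 9.06 CPM (median 3.61) in neurofibromas. It was high in GEM-PNST libraries 2 to 4, and library 1 was at the neurofibroma level. It rose against neurofibromas in GEM-PNST (log2 fold change 3.50, SE 0.48, adjusted p = 5.77e-06 by edgeR) and in paraspinal tumors (1.65, SE 0.39, adjusted p = 0.00139). With paraspinal subgroup 1 alone the change was 0.75 and did not pass. Against paraspinal tumors the GEM-PNST change of 1.84 (SE 0.79, adjusted p = 0.139) passed at 2.23 without GEM-PNST library 1.

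Mmp19, which cuts basement membrane proteins, had 25.8, 102, 74.2 and 38.3 CPM across GEM-PNST libraries 1 to 4, 136 and 70.4 CPM in paraspinal subgroup 2, 22.1 and 20.3 CPM in subgroup 1, and 3.35 to 62.4 CPM (median 23.5) in neurofibromas. The groups overlapped, and subgroup 2 lay above subgroup 1. Its call in GEM-PNST against neurofibromas (log2 fold change 1.14, SE 0.49, adjusted p = 0.0443 by edgeR) did not pass without GEM-PNST library 2 (0.76), library 3 (1.02) or neurofibroma library 9 (1.12), nor against neurofibroma run 1 alone (0.74). Between paraspinal tumors and neurofibromas the change was 1.19 (SE 0.53, adjusted p = 0.0619), which passed at 1.47 and 1.49 without subgroup 1 library 1 or 2 and at 1.37 without neurofibroma library 4, and was 1.75 and passing against neurofibroma run 2 alone, 1.92 and passing with subgroup 2 alone and -0.36 with subgroup 1 alone. Of its exon bases 22.3% overlap Tmem198b on the opposite strand.

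Mmp28, epilysin, had 8.59, 0.809, 1.59 and 1.05 CPM across GEM-PNST libraries 1 to 4, 6.21 and 4.12 CPM in paraspinal subgroup 2, 19.6 and 17.0 CPM in subgroup 1, and 3.02 to 8.72 CPM (median 5.77) in neurofibromas. Only subgroup 1 lay above the neurofibromas, and the call in paraspinal tumors against neurofibromas (log2 fold change 1.04, SE 0.34, adjusted p = 0.0142 by edgeR) did not pass without subgroup 1 library 1 (0.68) or library 2 (0.81), nor against either neurofibroma run alone (1.16 for run 2 and 0.94 for run 1). Without GEM-PNST library 1, the only one of its group above 1.59 CPM, Mmp28 passed as lower in GEM-PNST, at -3.34 against paraspinal tumors and -2.30 against neurofibromas. Mmp21, known for its part in left-right patterning of the embryo, had 0 counts in all 8 GEM-PNST and paraspinal libraries and 2 to 23 counts in each neurofibroma, 102 in all. It was at least 13.8-fold lower in GEM-PNST and at least 19.9-fold lower in paraspinal tumors than in neurofibromas, by the floor used for Mmp10.

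No ADAMTS gene of 18 tested passed between GEM-PNST and paraspinal tumors by edgeR (against 10.9% of all genes). An unadjusted p under 0.05 was seen there in 2 of 18 (Adamts7 and Adamts20), against 33.9% of all genes. Against neurofibromas 3 rose and 6 fell in paraspinal tumors (9 of 18, against 59.5% of all genes), and 3 rose and 6 fell in GEM-PNST (9 of 18, against 73.3%). Adamts7, which cuts the cartilage protein COMP, had 3.52, 231, 43.7 and 72.7 CPM across GEM-PNST libraries 1 to 4, 16.7 and 15.2 CPM in paraspinal subgroup 2, 13.7 and 17.2 CPM in subgroup 1, and 2.62 to 10.3 CPM in neurofibromas. All paraspinal libraries and GEM-PNST libraries 2 to 4 lay above all neurofibromas, while GEM-PNST library 1 lay among them. Adamts7 rose in GEM-PNST (log2 fold change 3.74, SE 0.52, adjusted p = 7.25e-06 by edgeR) and in paraspinal tumors (1.26, SE 0.25, adjusted p = 0.00028), both against neurofibromas. Its GEM-PNST change against paraspinal tumors was 2.48 (SE 0.94, adjusted p = 0.106), and 2.88 and passing without GEM-PNST library 1.

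Adamts10, which binds fibrillin microfibrils, had 62.3, 99.7, 115 and 61.6 CPM across GEM-PNST libraries 1 to 4, 65.6 and 88.3 CPM in paraspinal subgroup 2, 87.0 and 45.0 CPM in subgroup 1, and 7.89 to 54.4 CPM in neurofibromas. Each GEM-PNST library lay above each neurofibroma, and it rose in GEM-PNST (log2 fold change 1.80, SE 0.34, adjusted p = 0.000141 by edgeR) and in paraspinal tumors (1.56, SE 0.33, adjusted p = 0.000612). Adamts14, a procollagen N-proteinase, had 1.08, 70.5, 41.3 and 109 CPM across GEM-PNST libraries 1 to 4, 29.2 and 42.3 CPM in paraspinal subgroup 2, 20.4 and 15.6 CPM in subgroup 1, and 3.09 to 28.9 CPM in neurofibromas. GEM-PNST libraries 2 to 4 were high and library 1 was the lowest of all. Between paraspinal tumors and neurofibromas the change was 0.83 (SE 0.38, adjusted p = 0.0704), which passed at 1.02 without subgroup 1 library 2 and at 0.95 without neurofibroma library 4, and at 1.13 against neurofibroma run 2 alone and 1.24 with subgroup 2 alone. Its call in GEM-PNST against neurofibromas (1.87, SE 0.59, adjusted p = 0.00934) did not pass without library 4 (1.31) or against neurofibroma run 1 alone (1.62). Adamts2, the main procollagen N-proteinase, had 66.6 to 174 CPM in GEM-PNST, 44.6 to 195 CPM in paraspinal and 27.7 to 149.7 CPM in neurofibroma libraries, and did not pass in any stage comparison with all libraries. Against neurofibroma run 2 alone Adamts2 passed as higher in GEM-PNST (0.90, adjusted p = 0.0459 by edgeR) and in paraspinal tumors (1.09, adjusted p = 0.0447), and with paraspinal subgroup 2 alone it passed at 1.15.

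Among the proteoglycanases, Adamts20, known in mouse for pigment cell development, had 0, 0.27, 6.1 and 0.242 CPM across GEM-PNST libraries 1 to 4, 18.2 and 16.7 CPM in paraspinal subgroup 2, 31.3 and 63.5 CPM in subgroup 1, and 27.6 to 168 CPM in neurofibromas. All GEM-PNST libraries lay below all others. It fell in GEM-PNST against neurofibromas (log2 fold change -5.48, SE 1.03, adjusted p = 0.000154 by edgeR), and against paraspinal tumors its change was -4.27 (SE 1.43, adjusted p = 0.081), which passed at -7.51 without GEM-PNST library 3. In paraspinal tumors against neurofibromas it fell (-1.24, SE 0.46, adjusted p = 0.0271), but it did not pass without subgroup 2 library 1 (-1.04), subgroup 2 library 2 (-1.02) or subgroup 1 library 1 (-1.22), nor against neurofibroma run 2 alone (-0.86). Schwann cell marker sums were likewise lowest in GEM-PNST, as given above, and their part in the Adamts20 result was not tested.

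Adamts5, the main aggrecan-cutting enzyme of mouse cartilage, had 1.49, 34.4, 34.4 and 48.5 CPM across GEM-PNST libraries 1 to 4, 30.7 and 32.7 CPM in paraspinal subgroup 2, 29.1 and 61.1 CPM in subgroup 1, and 27.9 to 211 CPM in neurofibromas. The groups overlapped. It fell against neurofibromas in GEM-PNST (log2 fold change -1.59, SE 0.65, adjusted p = 0.037 by edgeR) and in paraspinal tumors (-1.22, SE 0.46, adjusted p = 0.0294), but neither call held in all fits. The GEM-PNST call did not pass without library 2 or library 3 (-1.67 each), nor against run 2 (-1.93) or run 1 (-1.15) of the neurofibromas alone. The paraspinal call did not pass without subgroup 2 library 1 (-1.13), subgroup 2 library 2 (-1.15) or subgroup 1 library 1 (-1.11). Adamts4, its close relative, had 0.947 to 12 CPM in GEM-PNST, 4.33 to 13.9 CPM in paraspinal and 0.686 to 7.23 CPM in neurofibroma libraries, and its call in paraspinal tumors against neurofibromas (1.36, SE 0.42, adjusted p = 0.0108) did not pass without subgroup 2 library 1 (1.00) or against neurofibroma run 1 alone (0.97). In GEM-PNST against neurofibromas its change was 1.08 (SE 0.52, adjusted p = 0.0719), which passed at 1.44 without GEM-PNST library 1 and at 1.25 without neurofibroma library 4, and at 1.61 against neurofibroma run 2 alone. Adamts1, the gene with the highest level per kilobase of its family in most neurofibromas, had 3.99 to 324 CPM in GEM-PNST and 26.3 to 179 CPM in neurofibroma libraries and did not pass in any stage comparison with all libraries, although without GEM-PNST libraries 1 and 3 it passed in GEM-PNST against neurofibromas (1.32).

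Several genes were low outside the neurofibromas, among them Adamts13, the enzyme that cuts von Willebrand factor and is made mainly in liver. It had 0.541, 0, 0 and 0.161 CPM across GEM-PNST libraries 1 to 4, 0.291 and 0 CPM in paraspinal subgroup 2, 0.248 and 0.309 CPM in subgroup 1, and 15.6 to 26.6 CPM (median 19.4) in neurofibromas. The gap between the neurofibromas and all other libraries was wide, with no neurofibroma near the others. Adamts13 fell in GEM-PNST (log2 fold change -6.87, SE 0.71, adjusted p = 2.34e-07 by edgeR) and in paraspinal tumors (-6.56, SE 0.49, adjusted p = 7.84e-09), both against neurofibromas. Adamts12, which cuts COMP, had 0.701 to 4.68 CPM in GEM-PNST, 0.911 to 5.08 CPM in paraspinal and 5.32 to 38.6 CPM in neurofibroma libraries, again with no overlap, and it fell in GEM-PNST (-3.06, SE 0.54, adjusted p = 8.64e-05) and in paraspinal tumors (-2.61, SE 0.50, adjusted p = 0.000234). Adamts6, a relative of Adamts10, had 0.0676 to 7.02 CPM in GEM-PNST, 0.656 to 3.32 CPM in paraspinal and 2.66 to 17.8 CPM in neurofibroma libraries. It fell in paraspinal tumors (-2.51, SE 0.51, adjusted p = 0.000429) and in GEM-PNST (-2.17, SE 0.75, adjusted p = 0.0153), where it did not pass against run 2 (-2.16) or run 1 (-2.17) of the neurofibromas alone. Since all neurofibromas come from other sequencing runs than the remaining libraries, stage and run cannot be told apart here.

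The remaining ADAMTS genes were Adamts3, Adamts8, Adamts9, Adamts15, Adamts16, Adamts17, Adamts18 and Adamts19. Of these, Adamts17 fell in paraspinal tumors (log2 fold change -0.62, SE 0.23, adjusted p = 0.0306 by edgeR) and Adamts19 fell in GEM-PNST (-3.63, SE 1.04, adjusted p = 0.00481), both against neurofibromas. The Adamts17 call did not pass without subgroup 2 library 2 (-0.61) or either subgroup 1 library (-0.50 each), nor against either neurofibroma run alone. Without GEM-PNST library 3, Adamts16 and Adamts19 passed as lower in GEM-PNST against paraspinal tumors (-8.36 and -8.38), and Adamts16 and Adamts17 against neurofibromas (-7.52 and -3.45). Adamts3, a procollagen N-proteinase, passed as lower in GEM-PNST against neurofibromas without GEM-PNST library 4 (-3.30). Adamts15 (0.66) and Adamts9 (-0.90) passed in paraspinal tumors against neurofibromas without subgroup 2 library 1, and with subgroup 1 alone (0.76 and -1.17). Adamts8, which is known to limit vessel growth, reached 52.0 CPM in GEM-PNST library 3, against 0 to 2.58 CPM in the other GEM-PNST libraries and at most 10.1 CPM elsewhere, and its GEM-PNST change against neurofibromas passed at 2.09 and 2.08 without library 1 or 2 and at -2.14 without library 3. Adamts18, which the filter left out, had at most 0.95 CPM in any library and with no filter passed as lower in GEM-PNST against neurofibromas (adjusted p = 0.0456).

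Of the 4 inhibitors none passed between GEM-PNST and paraspinal tumors by edgeR (against 10.9% of all genes), and none had an unadjusted p under 0.05 there (against 33.9%). Against neurofibromas Timp1 rose and Timp3 and Timp4 fell in paraspinal tumors (59.5% of all genes called), and Timp1 rose and Timp3 fell in GEM-PNST (73.3%). Timp1, the inducible inhibitor, had 3.11, 723, 361 and 303 CPM across GEM-PNST libraries 1 to 4, 1519 and 342 CPM in paraspinal subgroup 2, 30.7 and 16.7 CPM in subgroup 1, and 2.06 to 60.8 CPM (median 26.8) in neurofibromas. GEM-PNST libraries 2 to 4 and subgroup 2 stood high, and GEM-PNST library 1 and subgroup 1 lay within the neurofibroma range. Timp1 rose against neurofibromas in GEM-PNST (log2 fold change 3.81, SE 0.83, adjusted p = 0.000607 by edgeR) and in paraspinal tumors (4.27, SE 0.88, adjusted p = 0.000453). With subgroup 1 alone the paraspinal change was -0.06, and by limma-voom with sample weights it was 2.01 (adjusted p = 0.127), neither of which passed.

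Timp2, which is made by most cells and takes part in activating Mmp2, had 169.5, 1242, 497 and 722 CPM across GEM-PNST libraries 1 to 4, 725 and 826 CPM in paraspinal subgroup 2, 827 and 853 CPM in subgroup 1, and 733 to 942 CPM (median 823) in neurofibromas. The paraspinal and neurofibroma libraries shared 1 narrow range, and the GEM-PNST libraries were spread around it. No stage comparison passed for Timp2, with log2 fold changes of -0.30 (SE 0.55) in GEM-PNST against paraspinal tumors, -0.05 (SE 0.13) in paraspinal tumors against neurofibromas and -0.34 (SE 0.31) in GEM-PNST against neurofibromas, which was -0.85 and passed without GEM-PNST library 2.

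Timp3, the inhibitor that stays bound to the matrix and also blocks ADAMTS enzymes, had 229, 519, 719.8 and 58.9 CPM across GEM-PNST libraries 1 to 4, 657 and 707 CPM in paraspinal subgroup 2, 681 and 835 CPM in subgroup 1, and 655 to 2199 CPM (median 1683) in neurofibromas. All neurofibromas but library 11 lay above all other libraries. Timp3 fell in GEM-PNST (log2 fold change -2.11, SE 0.48, adjusted p = 0.000857 by edgeR) and in paraspinal tumors (-1.20, SE 0.25, adjusted p = 0.000506), both against neurofibromas. Timp3 lies inside Syn3, a neuronal gene on the opposite strand, and 21.3% of its exon bases overlap Syn3 exons, and whether strand was used in counting is not given. Syn3 itself fell in GEM-PNST (-8.93, SE 0.41, adjusted p = 4.04e-11) and in paraspinal tumors (-2.69, SE 0.36, adjusted p = 7.05e-06), both against neurofibromas, where it had 40.1 to 70.1 CPM, and the part of Syn3 reads in the Timp3 result was not tested. Timp4 had 5.0, 0.054, 0.992 and 0.161 CPM across GEM-PNST libraries 1 to 4, 0.437 and 1.57 CPM in paraspinal subgroup 2, 0.495 and 0.486 CPM in subgroup 1, and 0.148 to 10.1 CPM (median 2.65) in neurofibromas. Its call in paraspinal tumors against neurofibromas (-2.26, SE 0.84, adjusted p = 0.0272) did not pass without subgroup 2 library 1 (-2.08) or either subgroup 1 library (-2.11 each), nor against neurofibroma run 1 alone (-1.15). In GEM-PNST against neurofibromas Timp4 had a change of -1.23 (SE 0.99, adjusted p = 0.275), which was -3.11 and passed without GEM-PNST library 1.

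Mmp14 set against Timp2 differed between stages without overlap. The ratio of their levels per kilobase was 0.635, 0.71, 0.84 and 0.528 in GEM-PNST libraries 1 to 4, 0.385 and 0.308 in paraspinal subgroup 2, 0.156 and 0.0864 in subgroup 1, and 0.00899 to 0.0801 in neurofibromas. Every GEM-PNST library lay above every paraspinal library, and every paraspinal library above every neurofibroma. GEM-PNST library 1, which was low in many members, was not low in this ratio. Its Mmp14, at 165 CPM, lay below all paraspinal libraries but subgroup 1 library 2 (113 CPM). Its Timp2, at 169.5 CPM, was the lowest of all libraries, so its place above the paraspinal ratios came with low Timp2. The pair was chosen with these values known, so no test is given. The ratio of the summed Mmp to the summed Timp level was less clear-cut. It was 0.445 to 1.16 in GEM-PNST, 0.219 to 0.769 in paraspinal and 0.139 to 0.438 in neurofibroma libraries. In this family ratio the paraspinal range overlapped both others.

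**Figure D5:**
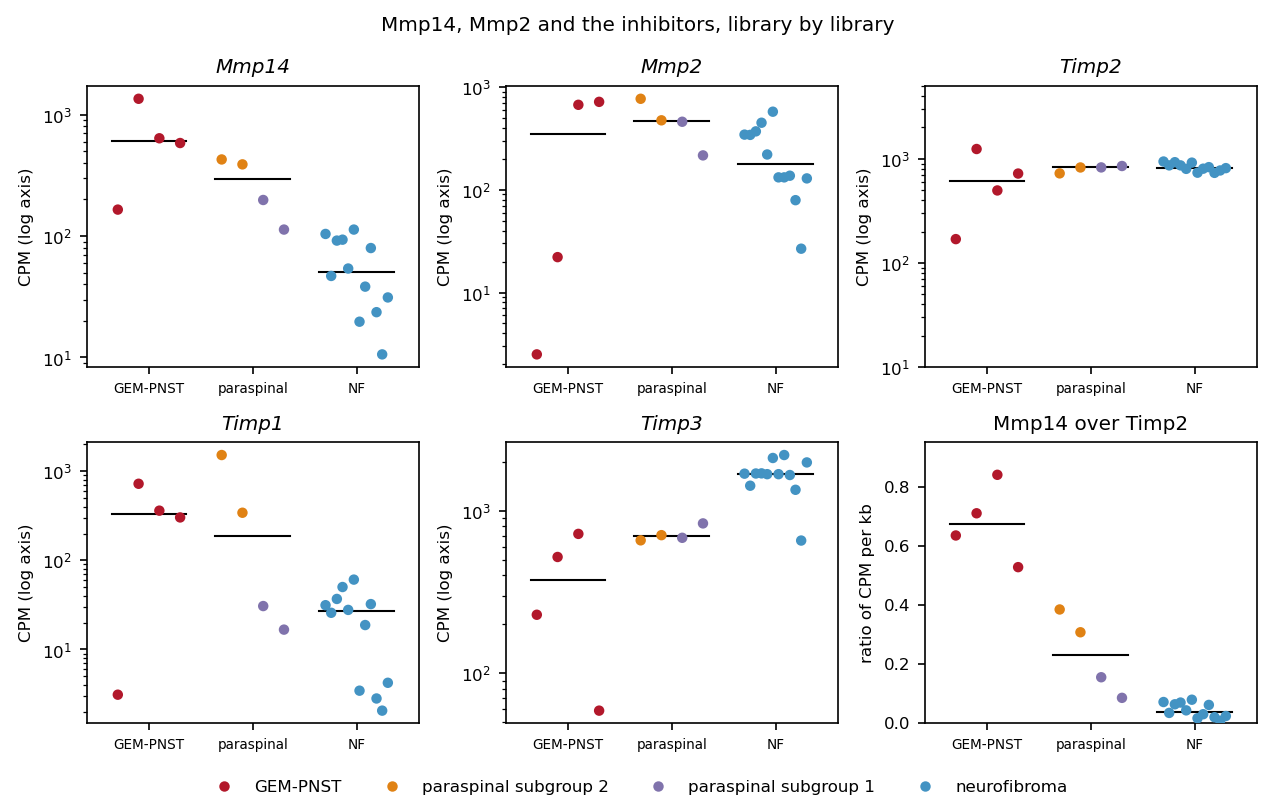
Levels of Mmp14, Mmp2, Timp2, Timp1 and Timp3 in each library (CPM, log axis), and the ratio of Mmp14 to Timp2 per kilobase, for GEM-PNST, paraspinal tumors and neurofibromas, with a line at each median. The ratio is 0.528 or more in GEM-PNST, 0.0864 to 0.385 in paraspinal tumors and 0.0801 or less in neurofibromas, while the Timp2 ranges overlap.

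Within the paraspinal tumors, 0 of 39 genes passed between subgroup 2 and subgroup 1 by edgeR (against a background of 0.0% of all genes), and 3 had an unadjusted p under 0.05 (against 12%). These were Timp1 (log2 fold change 5.29, SE 2.00), Mmp19 (2.29, SE 0.69) and Adamts2 (1.5, SE 0.53), all higher in subgroup 2. In simulated data the edgeR fit recovered 0 of 100 genes changed 4-fold between the subgroups. DESeq2 called 2 members (against 7.31% of all genes) and limma-voom called 9 (against 32.6%). The 2 libraries of each subgroup did not overlap in 25 of 39 genes, against 69.6% of all genes. Macrophage markers summed to 1482 to 1812 CPM in subgroup 2 and 303 to 860.3 CPM in subgroup 1, and fibroblast markers to 9217 to 12040.2 CPM in subgroup 2 and 4322 to 7668 CPM in subgroup 1, and their part in these values was not tested.

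Between run 2 and run 1 of the neurofibromas 0 of 39 genes passed by edgeR (against 0.0% of all genes), and 9 had an unadjusted p under 0.05 (against 13.3%). DESeq2 called 1 member, Mmp2 (against 3.17% of all genes), and limma-voom called 3, Mmp2, Mmp14 and Timp1 (against 1.87%), all lower in run 2. Mmp2 was the only member whose runs did not overlap (1 of 39, against 0.983% of all genes), at 26.7 to 137 CPM in run 2 and 220.4 to 575 CPM in run 1 (log2 fold change -1.85, SE 0.36, adjusted p = 0.159 by edgeR). Fibroblast markers summed to 1094 to 5587 CPM in run 2 and 4528 to 9519.7 CPM in run 1, and their part in the Mmp2 difference was not tested.

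Genes that switch these enzymes on or clear them were followed as a list of 17, of which 16 were tested. Between GEM-PNST and paraspinal tumors 2 rose and 1 fell (18.8% called, against 10.9% of all genes), in paraspinal tumors against neurofibromas 5 rose and 2 fell (43.8%, against 59.5%), and in GEM-PNST against neurofibromas 6 rose and 3 fell (56.2%, against 73.3%). The median log2 fold change over the list was 0.42, 0.57 and 0.76 in the same order, and over all genes 0.04, -0.01 and -0.12. Furin, the protease that activates membrane-type MMPs and Mmp11, had 240.2, 292, 165 and 190 CPM across GEM-PNST libraries 1 to 4, 80.0 to 115 CPM in paraspinal and 13.0 to 39.8 CPM in neurofibroma libraries. The 3 groups did not overlap, and Furin rose in GEM-PNST against paraspinal tumors (1.27, SE 0.28, adjusted p = 0.0287 by edgeR). Plau, the urokinase that makes plasmin, had 37.5, 464, 144 and 162 CPM across GEM-PNST libraries 1 to 4, against 7.03 to 35.9 CPM in paraspinal libraries, and it also rose (3.30, SE 0.80, adjusted p = 0.0374). A2m, a broad trap for proteinases, had 0 to 0.0807 CPM in GEM-PNST and 20.8 to 68.2 CPM in paraspinal libraries and fell (-9.73, SE 0.72, adjusted p = 0.000883). Reck, a membrane-anchored MMP inhibitor, fell in GEM-PNST against neurofibromas (-3.40, SE 0.49, adjusted p = 1.14e-05).

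The 7 AP-1 subunits tested were read because of the letters shown in the cluster promoters. Of these 1 rose in GEM-PNST against paraspinal tumors (against 3.07% of all genes higher). Against neurofibromas 6 rose in GEM-PNST (35.4% of all genes higher) and 6 in paraspinal tumors (30.3%), with Fosl2 the exception in both. Junb had 222, 411, 132 and 112 CPM across GEM-PNST libraries 1 to 4, 77.0 and 53.7 CPM in paraspinal subgroup 2, 36.9 and 26.7 CPM in subgroup 1, and 1.03 to 5.33 CPM in neurofibromas. It rose in GEM-PNST against paraspinal tumors (log2 fold change 2.17, SE 0.52, adjusted p = 0.0361 by edgeR). Fosl1 had 0.0676, 129.7, 3.57 and 96.6 CPM across GEM-PNST libraries 1 to 4, 0.133 to 6.26 CPM in paraspinal and 0 to 0.341 CPM in neurofibroma libraries. Its high libraries, GEM-PNST 2 and 4, were also those with the most Mmp10 and Mmp13, while Mmp3 was highest in library 3. No relation between these genes was tested.

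Among 16 matrix substrates, of which 15 were tested, none rose and 3 fell in GEM-PNST against paraspinal tumors (3 of 15, against 10.9% of all genes), namely the nervous system proteoglycans Bcan (log2 fold change -8.36) and Ncan (-9.33) and the cartilage collagen Col2a1 (-7.58). In paraspinal tumors against neurofibromas 8 rose, among them Col1a1 (2.20, SE 0.44, adjusted p = 0.000387 by edgeR) and Col4a1 (1.97, SE 0.32, adjusted p = 5.51e-05), and 3 fell (73.3% called, against 59.5% of all genes). In GEM-PNST against neurofibromas 6 rose and 4 fell (66.7%, against 73.3% of all genes). Of 11 ADAM proteases, the membrane-bound relatives, only Adam22, a protein of nerve cells without proteinase activity, passed between GEM-PNST and paraspinal tumors (-3.47, SE 0.55, adjusted p = 0.00852; 9.09% of the list, against 10.9% of all genes), and against neurofibromas 3 rose and 4 fell in each of GEM-PNST and paraspinal tumors (63.6%, against 73.3% and 59.5%).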

How the data were processed

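The authors deposited raw counts of reads per gene for 20 libraries, which were whole numbers in every column. Kits were RNeasy Plus Micro (for RNA) and Nextera XT (for libraries), per the labels' protocols. The submitters' processing notes name mm10, TopHat, HISAT2 and featureCounts; their versions, roles and strand setting are not given in the sources used here. Sequencing runs were read from alignment names in the deposited sample sheet. From the counts, CPM were computed here with TMM factors over all 20 libraries, and per kilobase with exon lengths of GENCODE vM21. Genes were filtered with filterByExpr (16589 of 24062 kept) and tested by quasi-likelihood F tests (R 4.3.3, edgeR 4.0.16) in fits of the groups compared (the subgroup fit also held GEM-PNST), with Benjamini-Hochberg adjustment at 0.05 over all genes tested. Alternatives used DESeq2 1.42.0, limma 3.58.1, other filters (1 CPM in 4 libraries), other scaling, a replicate block and libraries left out. The scripts were tested on simulated data, in which 100 genes were changed 2-fold and another 100 were changed 4-fold in each comparison. Of the genes changed 4-fold the fits recovered 0 between GEM-PNST and paraspinal tumors and 0 between the paraspinal subgroups. They recovered 80 in paraspinal tumors and 69 in GEM-PNST, both against neurofibromas, and 76 between the neurofibroma runs. In the first 2 comparisons a gene that did not pass may therefore still differ 4-fold. The simulated data held fewer changed genes than were called between the stages, so the recovered counts do not give the power of those fits. Each library differed from all others of its group by more than sampling noise.

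Full values are given for Mmp2, Mmp9, Mmp13, Mmp14, Timp1 to Timp4 and up to 20 further members with a mean log2 CPM (prior count 2) of at least 3 in a group and a call in a stage comparison, ranked by fold change. Other genes are named as extremes of a role, for values near 0, or as up to 4 members of a list. The members and lists were chosen with earlier results of these data known.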

Additional observations from a re-analysis of the deposited data

Results flagged for a closer look

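Of 54 sets of 4 paraspinal or 4 GEM-PNST libraries examined, 8 held a library whose distance to its nearest neighbor on the log2 CPM scale (prior count 2) took up more of the whole range than Dixon's 95% critical value. Chance gives about 1 in 20 for independent sets. These sets share libraries, many of their genes were picked for large changes, and the paraspinal sets mix 2 subgroups. The 8 of 54 therefore cannot be weighed against 1 in 20. The levels below are printed in CPM, on which the distances differ. In GEM-PNST all 4 such cases were library 1 at the low end, with Timp1 at 3.11 CPM, Mmp3 at 0 CPM, Mmp23 at 3.92 CPM and Adamts5 at 1.49 CPM. Fibroblast markers summed to 159 CPM in that library, and their part in these values was not tested. Among paraspinal tumors, Mmp12 was high in subgroup 2 library 1 at 8.3 CPM, Timp4 was high in subgroup 2 library 2 at 1.57 CPM, Adamts13 was at 0 CPM in subgroup 2 library 2, and Adamts5 was high in subgroup 1 library 2 at 61.1 CPM.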

How the results depend on the processing

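Between GEM-PNST and paraspinal tumors, where 1 member passed, the count was 2 with no filter on low counts, Mmp24 and Mmp10 (against 8.17% of all genes), 8 with DESeq2 (28.4%), 4 with limma-voom (17.2%), 12 with all 20 libraries in 1 fit (42.8%), 0 with paraspinal subgroup 2 alone (0.537%) and 14 without GEM-PNST libraries 1 and 3 (14.5%), a setting chosen after seeing the data. Leaving out 1 library gave 1 to 7 (against 3.26% to 15.1% of all genes). Against neurofibromas 7 libraries were left out in turn, the 4 paraspinal or GEM-PNST libraries and neurofibroma libraries 4, 8 and 9. The count was 17 to 24 in paraspinal tumors (21 passed with all), against 52.9% to 60.3% of all genes. In GEM-PNST it was 22 to 27 (23 passed with all), against 71.4% to 73.3% of all genes. The other neurofibroma libraries were not left out singly. Leaving out 1 library gave 0 to 0 between the subgroups (0.0% of all genes), where DESeq2 called 2 (7.31% of all genes) and limma-voom 9 (32.6%). Between the runs they called 1 (3.17%) and 3 (1.87%). By limma-voom with sample weights, Timp1 (2.01), Mmp12 (0.55), Timp4 (-1.67) and Adamts5 (-0.90) did not pass in paraspinal tumors against neurofibromas, nor did Adamts5 (-1.13), Mmp19 (1.10) and Mmp25 (-2.40) in GEM-PNST against neurofibromas. Replicate numbers are shared by the groups, and deviations of same-numbered libraries correlated at -0.259 to 0.168. These correlations cannot show whether libraries share an animal, and in a paraspinal subgroup of 2 libraries the deviations mirror each other. With a replicate block the counts were 4 (5.77% of all genes), 5 (17.8%) and 10 (44.7%) in the 3 stage comparisons in the order given above. In paraspinal tumors against neurofibromas Mmp12 ranged over -0.40 to 2.46 with 1 of those 7 libraries left out, reversing without subgroup 2 library 1. With subgroup 1 alone Mmp12 reversed to -0.43, Timp1 to -0.06 and Mmp19 to -0.36, and with subgroup 2 alone Mmp28 reversed to -0.14. The cause was not tested. With relative log expression factors the median of all genes shifted from -0.01 to -0.18 for paraspinal tumors and from -0.12 to -0.29 for GEM-PNST, both against neurofibromas. Without Rn45s and Malat1, a setting not planned in advance, the counts in the 3 stage comparisons were 1 (11.6% of all genes), 21 (59.4%) and 23 (73.3%), as in the main fits. Of the 7 members that the filter left out, Mmp20 had no counts, and with no filter Mmp7 did not pass in any stage comparison, Mmp10 passed in GEM-PNST against both other groups, and Mmp1a, Mmp1b, Mmp27 and Adamts18 passed in GEM-PNST against neurofibromas alone; fitted fold changes of genes at 0 counts in a group depend on the prior count and are not given.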
